A study of Mus musculus with 34 samples.

Results

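The 35 genes described here are listed genes of mitochondrial fatty acid oxidation, of ketone body metabolism and of their regulation, chosen by name, with earlier results of these data known. They were 35 of the 23509 genes in the count tables, and all 35 passed the filter on low counts that left 15644 genes for testing. By role they comprise 5 transcriptional regulators, 5 genes of fatty acid uptake and storage, 4 acyl-CoA synthetases, 3 genes of the carnitine system, 4 acyl-CoA dehydrogenases, 3 genes of electron transfer, 5 hydratase, hydroxyacyl dehydrogenase and thiolase genes, 3 auxiliary isomerase and reductase genes and 3 genes of ketone body metabolism.

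Polyadenylated RNA of whole kidneys was sequenced from 34 C57BL6 mice at postnatal day 28 (P28). *Pkd2*-KO mice, which carry floxed *Pkd2* alleles and a Cre recombinase driven by the kidney tubule promoter of *Pkhd1*, received RGLS4326 at 20 mg per kg body weight (n = 11) or PBS (n = 11) subcutaneously at P10, P11, P12 and P19. Untreated non-transgenic (UNT) mice, labelled wildtype, served as age-matched controls (n = 12), so the UNT mice lacked both the knockout and the injections. The labels spell the genotype "Pdk2KO". The study's text states a different number of PBS-treated mice for this assay than the labels do, and all libraries labelled PBS were used. RGLS4326 is a short, chemically modified oligonucleotide that inhibits the microRNA miR-17. Deletion by this Cre is limited to cells in which its promoter is active, so transcripts from other cells of the kidney carry intact *Pkd2*. *Pkd2* ranged from 220 to 338 CPM in UNT, from 98.0 to 215 CPM in PBS-treated and from 170.0 to 237 CPM in RGLS4326-treated mice, where CPM denotes read counts brought to a common library size.

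Fatty acids are the main fuel of the proximal tubule, the segment of the nephron with the highest demand for energy. They are taken up, activated to acyl-CoA, carried into the mitochondrion as carnitine esters and shortened in repeated cycles by a dehydrogenase, a hydratase, a hydroxyacyl dehydrogenase and a thiolase, while electrons pass through the electron transfer flavoprotein to the respiratory chain. PPARα, encoded by *Ppara*, pairs with RXRα to activate many of these genes, PGC-1α is a coactivator of PPARα and of the estrogen-related receptors ERRα and ERRγ, and these receptors bind the promoters of many genes of mitochondrial energy metabolism.

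Each library held between 17603122 and 54981992 reads in genes, and the members' counts in single libraries ranged from 27 for *Plin5*, which was thus measured with the least precision, to 168645 for *Slc27a2*. Reads in no gene made up 9.84% to 11.3% of reads in UNT, 5.18% to 8.995% in PBS and 4.94% to 12.0% in RGLS4326 libraries. Sample numbers restart among the deposited tables, which divides the libraries into 3 numbering sets of 3 or 4 mice per group, and the origin of these sets was not given in the sources used here. Several libraries stood apart. PBS replicates 2 and 11 carried transcripts of the adrenal cortex, with summed levels of 4 markers of 613 and 1104 CPM against 1.25 to 33.5 CPM in all other libraries. PBS replicate 9 lay at 50.7 on the second principal component of the tested genes, against -13.2 to 19.6 for the other PBS libraries. Member calls that rest on the PBS group are therefore also given without replicates 2 and 11, or without replicate 9, where that changed them, and the counts of the other lists in RGLS4326 vs PBS were recomputed in the same way.

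MiR-17 recognises messenger RNA through its seed, bases 2 to 8 of the mature strand. The mature sequences of miR-17 and of relatives with the same seed are shown because RGLS4326 is directed at this seed, which is in capitals (RefSeq, GRCm38.p6, with miR-17-5p on the plus strand at chr14:115043684-115043706).
miR-17-5p: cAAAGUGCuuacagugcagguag
miR-20a-5p: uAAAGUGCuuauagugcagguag
miR-93-5p: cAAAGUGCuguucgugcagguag
miR-106b-5p: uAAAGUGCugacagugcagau
For each member, the longest 3′UTR in the annotation was searched for the complement of the seed. The searched letters were GCACTTT (7mer-m8) and CACTTTA (7mer-A1), which together form the 8mer GCACTTTA. A match was found in 4 of 35 members (11.4%), against 3011 of 14193 tested genes with an annotated 3′UTR (21.2%), and in 0 members as an 8mer, against 4.26% of these genes. The 3′UTRs of the members were shorter, with a median length of 602 bases against 1150 bases. Each match is shown in 30 bases of the transcribed strand with the match in capitals (GRCm38).
*Ppara*, 7mer-m8, plus strand, chr15:85801668-85801674: aaaactaatctGCACTTTttaacctttgaa
*Cd36*, 7mer-m8, minus strand, chr5:17783084-17783090: aataaaatcttGCACTTTtattaaaagtcc
*Acsl1*, 7mer-A1, plus strand, chr8:46535725-46535731: taacagcatttCACTTTActgcaagtcttt
*Decr1*, 7mer-m8, minus strand, chr4:15917721-15917727: actataatcttGCACTTTtgagaaccaaat
Of these genes, *Ppara* is a regulator, *Cd36* a fatty acid transporter, *Acsl1* a long-chain acyl-CoA synthetase and *Decr1* the mitochondrial 2,4-dienoyl-CoA reductase. A match describes the sequence and is not evidence of regulation at that site.

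Promoters were examined because PPARα and the estrogen-related receptors bind variants of the sequence AGGTCA. In windows from 250 bases before to 50 bases after the start of transcription (RefSeq, GRCm38.p6), available for 31 of 35 members, AGGTCA was present on either strand in 10 members (32.3%) and in 15.5% of the promoters of 11545 tested genes. The direct repeat AGGTCANAGGTCA, in which 2 copies of AGGTCA lie 1 base apart, was in 0 members and in 0.0520% of tested genes, and the extended form TCAAGGTCA was in 0 members and in 0.329%. Both longer motifs contain AGGTCA, and the windows hold only sequence close to the start. Of the members with a match, the 3 with the largest decreases in PBS vs UNT are shown, with AGGTCA or its complement TGACCT in capitals. The starts are those of RefSeq, and those of *Acsm1* and *Slc27a2* lie inside the genes as annotated in GENCODE M21, whose first bases are at 119607026 and 126552407.
*Slc27a2*, plus strand, chr2:126552804-126552809: gcaccacgccttTGACCTtttcaacgtggg
*Acsm1*, plus strand, chr7:119617705-119617710: tgcactgttttcTGACCTcttgactaaacg
*Acadm*, minus strand, chr3:153944887-153944892: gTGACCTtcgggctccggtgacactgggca

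The levels of the members in normal kidney were compared per length of the annotated exons, as CPM per kilobase. *Slc27a2*, which encodes a very-long-chain fatty acid transporter and acyl-CoA synthetase, was the highest at 942 ± 121 CPM per kilobase (SD, n = 12). It was followed by *Oxct1*, the enzyme that starts the use of ketone bodies, at 361 ± 55.1, by *Etfb* at 303 ± 43.4 and by *Acsm2* at 272 ± 93.7 CPM per kilobase. This order depends on the annotated exon length, 7424 bases for *Acsm2* and 3701 for *Oxct1*. In CPM alone *Acsm2* was the higher in UNT, with a mean of 2021 against 1336. *Etfb* shares exon bases with other genes on the same strand, so its place is uncertain. The regulators were lower, from 56.2 ± 12.0 CPM per kilobase for *Ppara* to 17.3 ± 3.24 for *Esrrg*. The lowest were *Plin5*, a lipid droplet protein of oxidative tissues, at 3.92 ± 0.979, and *Acsm3* at 3.26 ± 1.26 CPM per kilobase. Of 34 neighbouring pairs in this order, the ranges over the UNT mice were separate in only 2, between *Slc27a2* and *Oxct1* and between *Plin2* and *Plin5*.

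Whether the pathway was altered in cystic kidneys was examined by comparing PBS-treated *Pkd2*-KO with UNT mice. Of the 35 members, 34 were lower and 1, *Plin2*, was higher in PBS-treated kidneys, at a Benjamini-Hochberg adjusted p under 0.05 in the quasi-likelihood test of edgeR. Among all tested genes, 39.0% were called lower and 43.1% higher, so calls in both directions were common in this comparison. The median log2 fold change was -1.21 over the members and 0.04 over all tested genes. The highest PBS-treated mouse stayed under the lowest UNT mouse in 31 of 35 members, which held for 19.8% of all tested genes. The exceptions were *Rxra*, *Plin2*, *Acsm3* and *Eci2*. In these bulk samples, fewer cells of a type and less RNA per cell cannot be told apart.

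**Figure D1:**
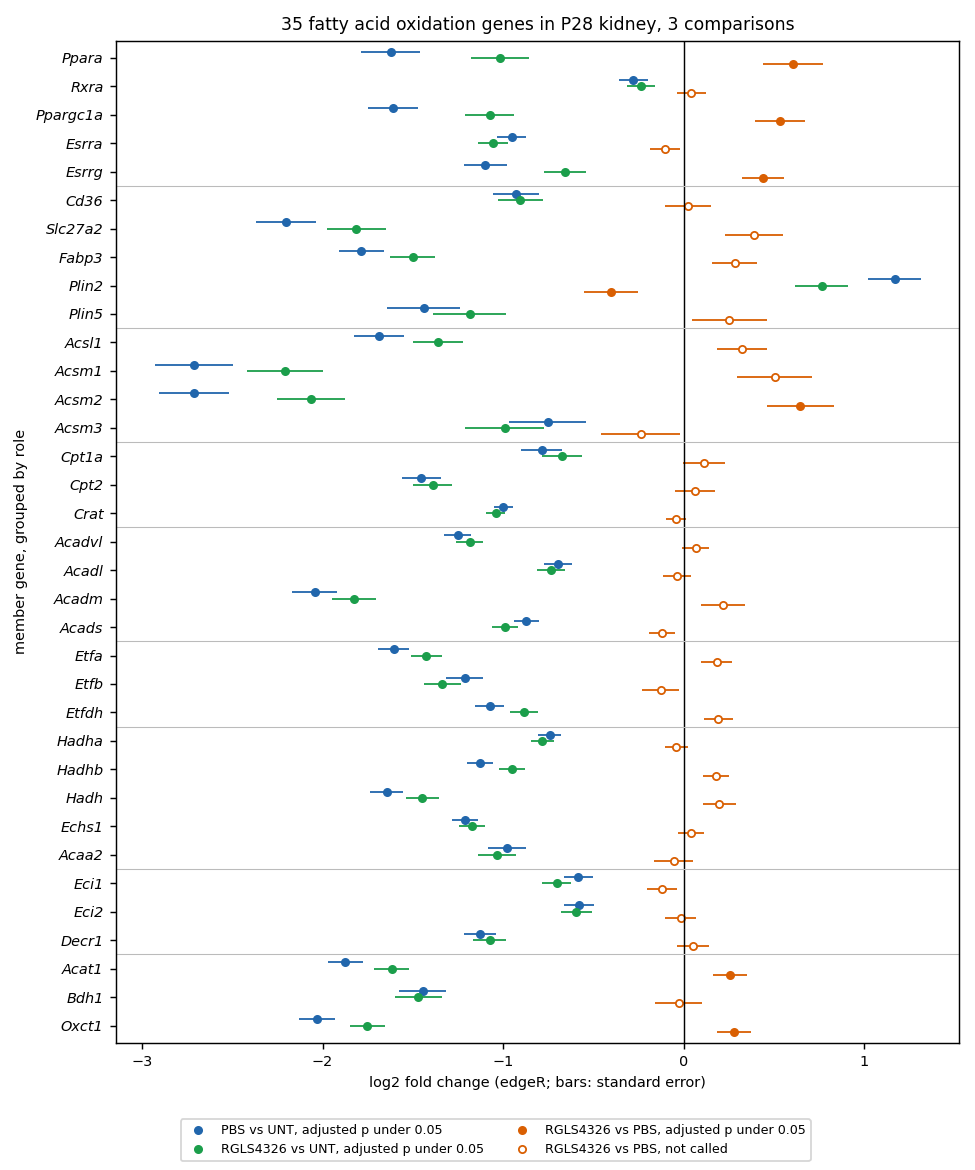
Log2 fold change (horizontal axis, bars are standard errors) of the 35 members, grouped by role on the vertical axis, in PBS vs UNT, RGLS4326 vs UNT and RGLS4326 vs PBS; filled points had an edgeR adjusted p under 0.05. All members except *Plin2* lie left of 0 against UNT, whereas 28 of 35 were not called between RGLS4326 and PBS.

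Among the regulators, *Ppara* ranged from 165 to 295 CPM in UNT mice (median 198) and from 38.9 to 125 CPM in PBS-treated mice (median 61.3), with no overlap. Its log2 fold change was -1.62 (SE 0.16, adjusted p in edgeR = 3.66e-11), the largest among the regulators. *Ppargc1a*, which encodes PGC-1α, fell to a similar extent, from a range of 109 to 211 CPM (median 148) in UNT to 22.8 to 72.4 CPM (median 47.6) in PBS, a log2 fold change of -1.61 ± 0.14 (SE, with an adjusted p of 5.50e-13 in edgeR). *Esrrg*, which encodes ERRγ, was at 83.2 to 145 CPM (median 105) in UNT and at 23.8 to 67.2 CPM (median 46.9) in PBS, a log2 fold change of -1.10 ± 0.12 (SE, with an adjusted p of 1.13e-10 in edgeR). Both coactivator and receptor thus stood below the lowest UNT mouse in every PBS-treated mouse. *Esrra*, which encodes ERRα, was at 71.8 to 141 CPM (median 125) in UNT and at 53.4 to 71.0 CPM (median 63.7) in PBS, a log2 fold change of -0.95 ± 0.08 (SE, with an adjusted p of 4.76e-13 in edgeR). *Rxra*, the shared partner of many nuclear receptors, changed least. It ranged from 104 to 163 CPM (median 119) in UNT and from 93.9 to 118 CPM (median 102) in PBS, the groups overlapped, and its log2 fold change was -0.28 (SE 0.08, adjusted p in edgeR = 0.00168).

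Of the 5 genes of uptake and storage, 4 fell and 1 rose. *Slc27a2* was at 2904 to 4152 CPM (median 3656) in UNT and at 366 to 1289.7 CPM (median 739) in PBS, a log2 fold change of -2.20 ± 0.17 (SE, with an adjusted p of 1.54e-14 in edgeR). The other members that fell were *Fabp3*, a cytosolic fatty acid binding protein, at -1.78, *Plin5* at -1.44 and *Cd36* at -0.93 on the log2 scale. *Plin2*, the protein that coats lipid droplets in most cells, moved the other way. It was at 34.2 to 106 CPM (median 57.3) in UNT and at 95.2 to 186 CPM (median 120.3) in PBS, a log2 fold change of 1.17 ± 0.15 (SE, with an adjusted p of 5.76e-09 in edgeR), and 1 UNT mouse lay within the PBS range. Summed levels of 5 adipocyte markers were 16.9 to 179 CPM in UNT, 102 to 432 CPM in PBS and 58.0 to 166 CPM in RGLS4326 libraries, 4 of these 5 markers rose in PBS-treated kidneys, and their part in the change of *Plin2* was not tested.

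The acyl-CoA synthetases held the largest decreases. *Acsm1*, a medium-chain acyl-CoA synthetase of mitochondria, was at 179 to 328 CPM (median 221) in UNT and at 12.3 to 64.7 CPM (median 30.5) in PBS, a log2 fold change of -2.71 ± 0.22 (SE, with an adjusted p of 7.68e-14 in edgeR). *Acsm2*, a neighbouring gene of the same family, was at 1257 to 3087 CPM (median 1761) in UNT and at 159 to 527 CPM (median 282) in PBS, also a log2 fold change of -2.71 ± 0.20 (SE, with an adjusted p of 4.43e-15 in edgeR). Mean levels in PBS were 15.2% and 15.3% of the UNT mean for these genes. *Acsl1* fell by 1.69 and *Acsm3* by 0.75 on the log2 scale, and the groups overlapped for *Acsm3*, which shares 39.8% of its exon bases with *Eri2* on the opposite strand and is therefore uncertain.

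The carnitine system moves long-chain acyl groups across the mitochondrial membranes. *Cpt2*, the enzyme of the inner membrane, was at 136 to 229.9 CPM (median 188) in UNT and at 41.9 to 96.6 CPM (median 69.2) in PBS, a log2 fold change of -1.45 ± 0.11 (SE, with an adjusted p of 1.48e-14 in edgeR). *Cpt1a*, the regulated entry enzyme of the outer membrane, fell less, by 0.79 on the log2 scale (SE 0.11). *Crat*, carnitine acetyltransferase, had a log2 fold change of -0.999 (SE 0.05) and varied little between mice, from 162 to 206 CPM in UNT and from 76.1 to 99.3 CPM in PBS.

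Among the acyl-CoA dehydrogenases, which catalyse the first step of each cycle for different chain lengths, *Acadm* (medium chain) was at 605 to 1077 CPM (median 709) in UNT and at 126 to 267 CPM (median 179.9) in PBS. Its log2 fold change of -2.04 (SE 0.12, adjusted p in edgeR = 4.39e-17) was larger than those of *Acadvl* (very long chain, -1.25, SE 0.07), *Acads* (short chain, -0.87, SE 0.07) and *Acadl* (long chain, -0.70, SE 0.08). *Acadvl* shares 42.9% of its exon bases with *Dvl2* on the opposite strand. The electron acceptors fell as well. *Etfa*, a subunit of the electron transfer flavoprotein, was at 322 to 496 CPM (median 359) in UNT and at 87.8 to 155 CPM (median 130.1) in PBS, a log2 fold change of -1.61 ± 0.09 (SE, with an adjusted p of 8.59e-19 in edgeR). *Etfb*, the other subunit, fell by 1.21 on the log2 scale and *Etfdh*, the dehydrogenase that passes the electrons to ubiquinone, changed by -1.08. *Etfb* shares 58.3% of its exon bases with annotated genes on the same strand, so its level is uncertain.

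The remaining steps of the cycle moved in the same direction. *Hadh*, the hydroxyacyl dehydrogenase of medium and short chains, was at 538 to 699 CPM (median 604) in UNT and at 134 to 246 CPM (median 205) in PBS, a log2 fold change of -1.64 ± 0.09 (SE, with an adjusted p of 3.17e-18 in edgeR). *Hadha* and *Hadhb*, the subunits of the trifunctional protein for long chains, fell by 0.74 and 1.13. *Echs1*, the short-chain hydratase, fell by 1.21, and *Acaa2*, the thiolase, by 0.98 on the log2 scale. The enzymes that prepare unsaturated fatty acids for the cycle fell as well. *Decr1* was at 222 to 328 CPM (median 261) in UNT and at 78.7 to 149.6 CPM (median 125) in PBS, a log2 fold change of -1.13 ± 0.09 (SE, with an adjusted p of 6.52e-14 in edgeR), and the isomerases *Eci1* and *Eci2* each fell by 0.58.

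All 3 genes of ketone body metabolism fell. *Oxct1* was at 1150.4 to 1755 CPM (median 1259.9) in UNT and at 233 to 453 CPM (median 324) in PBS, a log2 fold change of -2.03 ± 0.10 (SE, with an adjusted p of 4.66e-20 in edgeR). *Acat1*, mitochondrial acetoacetyl-CoA thiolase, was at 510.1 to 749.6 CPM (median 543) in UNT and at 114 to 213 CPM (median 162) in PBS, a log2 fold change of -1.87 ± 0.10 (SE, with an adjusted p of 4.60e-19 in edgeR). *Bdh1*, the dehydrogenase that interconverts the ketone bodies, fell by 1.44 on the log2 scale (SE 0.13).

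**Figure D2:**
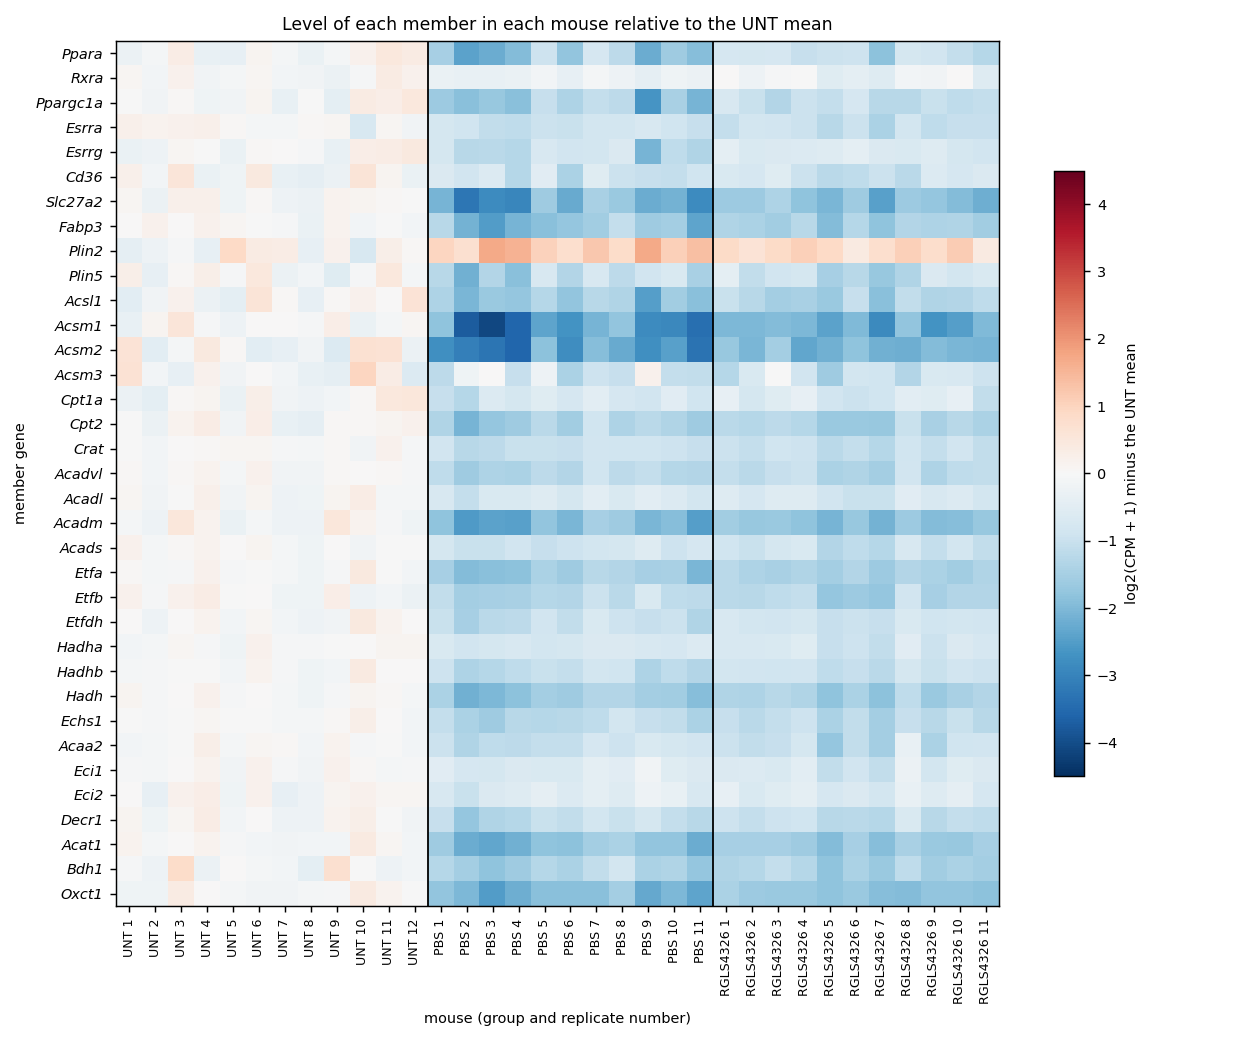
Level of each member (rows) in each of the 34 mice (columns), as log2(CPM + 1) minus the mean of the UNT mice; blue is lower and red higher. PBS replicate 2 had the lowest PBS level of 17 of 35 members, and *Plin2* is the row with higher levels in the *Pkd2*-KO mice.

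Whether inhibition of miR-17 changed these genes was examined in *Pkd2*-KO mice that received RGLS4326 against those that received PBS. Of the 35 members, 6 were called higher (*Ppara*, *Ppargc1a*, *Esrrg*, *Acsm2*, *Acat1* and *Oxct1*), 1 was called lower (*Plin2*) and 28 were not called. Among all tested genes, 15.3% were called higher and 18.5% lower. The 6 of 35 members called higher were thus a share near that of all genes, and the median log2 fold change was 0.07 over the members and 0.00 over all genes. The RGLS4326-treated and PBS-treated mice overlapped in every member, as they did in all of the 15644 tested genes but 7 that were higher and 3 that were lower. Both comparisons with *Pkd2*-KO mice use the same PBS-treated animals, so an unusually low PBS mouse enters both.

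Of the regulators, 3 rose. *Ppara* (chr15:85734983-85802819, plus strand) ranged from 58.6 to 125 CPM (median 111) in mice given RGLS4326, against 38.9 to 125 CPM (median 61.3) with PBS. Its log2 fold change was 0.61 (SE 0.16, adjusted p in edgeR = 0.00806), and its mean level was 49.4% of the UNT mean, against 32.4% in PBS. *Ppargc1a* (chr5:51454250-51567726, minus strand) was at 59.8 to 91.0 CPM (median 71.0) after treatment, a log2 fold change of 0.53 ± 0.14 (SE, with an adjusted p of 0.00639 in edgeR). *Esrrg* (chr1:187608791-188214885, plus strand) was at 58.0 to 78.0 CPM (median 67.2), a log2 fold change of 0.44 ± 0.12 (SE, with an adjusted p of 0.00752 in edgeR). For both genes the treated mice spanned a narrower range than the PBS mice, in which replicate 9 had the lowest level. *Rxra* at 82.4 to 127 CPM (median 110.4; log2 fold change 0.04, SE 0.08, adjusted p in edgeR = 0.691) and *Esrra* at 44.2 to 66.5 CPM (median 57.9; -0.10, SE 0.08, adjusted p in edgeR = 0.328) were not called. With a term for the no-gene read share, *Ppara*, *Ppargc1a* and *Esrrg* were at 0.58, 0.43 and 0.37 and were not called. In that fit 0 of 35 members and 0.569% of all genes were called. *Ppara* was at 0.08 in numbering set 2 alone.

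**Figure D3:**
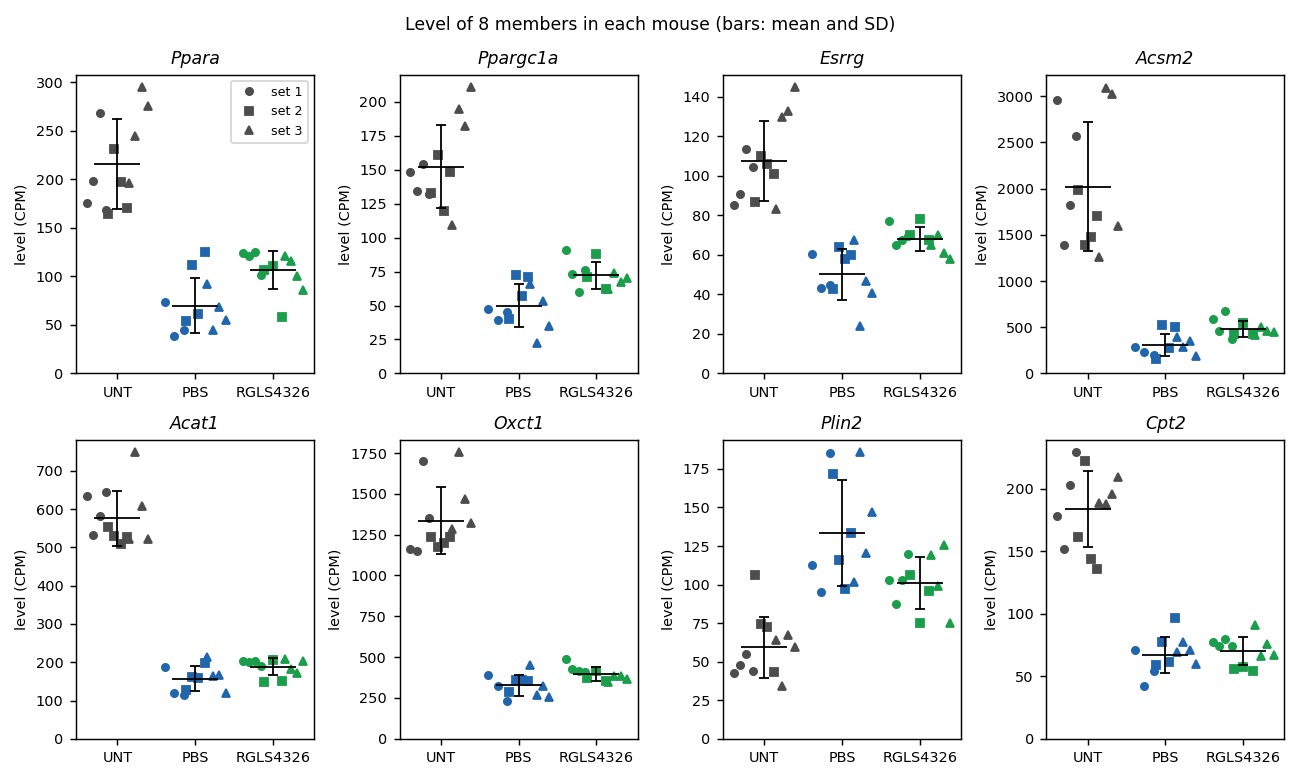
Level in CPM (vertical axes, from 0) of 8 members in every mouse of the UNT, PBS and RGLS4326 groups; symbols mark the 3 numbering sets, and bars the mean and SD (n = 12, 11 and 11). The treated mice overlap with the PBS-treated mice in every panel, and *Cpt2*, shown as a member that was not called, has nearly the same mean in both (67.2 and 70.2 CPM).

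*Acsm2* (chr7:119554340-119600690, plus strand) was at 378 to 671 CPM (median 457) in RGLS4326-treated mice, against 159 to 527 CPM (median 282) in PBS-treated mice. This was the largest change of a member in this comparison, with a log2 fold change of 0.65 ± 0.19 (SE, with an adjusted p of 0.0108 in edgeR). The neighbouring *Acsm1*, with a median of 54.8 CPM and a maximum of 64.6 CPM, had a log2 fold change of 0.51 ± 0.21 (SE, with an adjusted p of 0.0566 in edgeR) and was not called. Both genes of ketone body use that were called moved by little, and neither was called without PBS replicates 2 and 11. With a term for the no-gene read share, 0 of 35 members and 0.569% of all genes were called. Both genes had a log2 fold change of 0.30 in that fit. *Oxct1* (chr15:4026383-4155344, plus strand) was at 345 to 489 CPM (median 386), a log2 fold change of 0.28 ± 0.09 (SE, with an adjusted p of 0.0241 in edgeR). *Acat1* (chr9:53580522-53610382, minus strand) was at 148 to 209 CPM (median 200.2), a log2 fold change of 0.26 ± 0.10 (SE, with an adjusted p of 0.0365 in edgeR). *Oxct1* shares 12.6% of its exon bases with a transcript on the opposite strand.

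*Plin2* (chr4:86648386-86670060, minus strand) was at 74.9 to 125 CPM (median 103) in RGLS4326-treated mice, against 95.2 to 186 CPM (median 120.3) in PBS-treated mice. It fell by 0.40 on the log2 scale (SE 0.15, adjusted p in edgeR = 0.0364). Of the adipocyte markers, 3 of 5 also fell in this comparison, among them *Adipoq* by 0.97. With a term for the no-gene read share, 0 of these 5 markers were called (median -0.72, against -0.97 without it). *Adipoq* was at -0.77 in that fit (adjusted p in edgeR = 0.15). Without PBS replicate 9 the log2 fold change of *Plin2* was -0.33 (adjusted p in edgeR = 0.0856), and without PBS replicates 2 and 11 it was -0.43 (adjusted p in edgeR = 0.0505).

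No gene of the carnitine system, the dehydrogenases, electron transfer, the hydratase to thiolase steps or the auxiliary enzymes passed the test between RGLS4326 and PBS. *Cpt2* was at 54.4 to 90.8 CPM (median 74.1) after treatment (log2 fold change 0.06, SE 0.11). *Acadm* was at 171 to 253 CPM (median 227; 0.22, SE 0.12), *Etfa* at 117 to 159 CPM (median 141; 0.18, SE 0.08), *Hadh* at 171 to 276 CPM (median 233; 0.20, SE 0.09) and *Decr1* at 108 to 164 CPM (median 124; 0.05, SE 0.09). The log2 fold changes of these genes differed from 0 by at most 0.22. The lowest adjusted p values among members that were not called were those of *Hadhb* (0.18, SE 0.07, adjusted p in edgeR = 0.053), *Acsm1*, *Slc27a2* (0.39, SE 0.16, adjusted p in edgeR = 0.0575), *Etfdh* (0.19, SE 0.08, adjusted p in edgeR = 0.0594) and *Acsl1* (0.33, SE 0.14, adjusted p in edgeR = 0.0643). *Slc27a2* ranged from 650.0 to 1331 CPM (median 1061) in treated mice.

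Among the members with a seed match, *Ppara* was called higher, whereas *Acsl1*, *Decr1* and *Cd36* had log2 fold changes of 0.33, 0.05 and 0.02 and were not called. The other 5 members called higher had no match to the seed in the longest annotated 3′UTR.

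The treated kidneys stayed far from normal. In RGLS4326 vs UNT, 34 of 35 members were called lower and *Plin2* was called higher, against 36.9% of all tested genes called lower and 40.8% called higher. The median log2 fold change was -1.07. In 29 members the highest RGLS4326-treated mouse stayed under the lowest UNT mouse, against 16.1% of all tested genes. Mean levels after treatment ranged from 21.6% of the UNT mean for *Acsm1* to 85.0% for *Rxra* among the members that fell, and *Plin2* was at 170.0% (log2 fold change 0.76, SE 0.15, adjusted p in edgeR = 1.61e-05). For *Ppara*, *Ppargc1a* and *Esrrg* the log2 fold changes against UNT were -1.02, -1.07 and -0.66.

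Each numbering set was also fitted alone. In PBS vs UNT, 34 of 35 members had a negative log2 fold change in each set, with medians of -1.45, -1.15 and -1.20 in sets 1, 2 and 3. In RGLS4326 vs PBS, 32 of 35 members were above 0 in set 1 (median 0.38), 10 of 35 in set 2 (median -0.20) and 22 of 35 in set 3 (median 0.14). A test of whether the treatment difference varied between the sets called 0 of 15644 genes with edgeR, and had an unadjusted p under 0.05 in 1126 genes (7.20%) and in 20 of 35 members. The lowest of the members' adjusted p values was 0.601, for *Cpt2*. The test of a difference between sets was added after the data were seen.

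**Figure D4:**
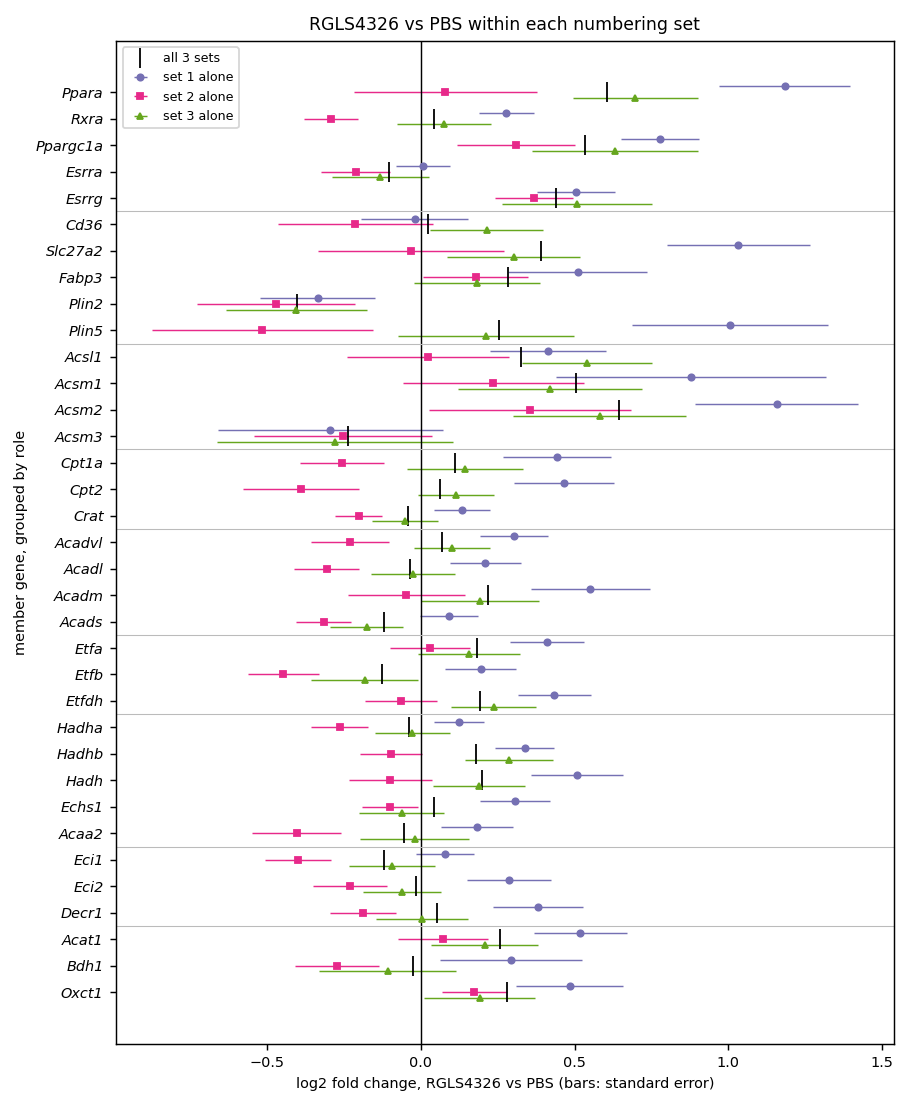
Log2 fold change between RGLS4326 and PBS (horizontal axis, bars are standard errors) of each member in each numbering set fitted alone, with the value over all sets as a black tick. The values of set 1 lie mostly right of 0 and those of set 2 mostly left of 0.

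*Ppara* shows this spread. Its log2 fold change in RGLS4326 vs PBS was 1.18 in set 1, where 4 treated mice at 102 to 125 CPM lay above 3 PBS-treated mice at 38.9 to 73.5 CPM. It was 0.08 in set 2, with 58.6 to 111 CPM in 3 treated and 53.8 to 125 CPM in 4 PBS-treated mice, and 0.70 in set 3. *Ppargc1a* (0.78, 0.31 and 0.63), *Esrrg* (0.51, 0.37 and 0.51) and *Acsm2* (1.16, 0.35 and 0.58) were above 0 in all sets, as were *Acat1* (0.52, 0.07 and 0.21) and *Oxct1* (0.48, 0.17 and 0.19), and *Plin2* was below 0 in all sets (-0.34, -0.47 and -0.41). In set 2 alone, 4 members were called lower in treated mice by edgeR, namely *Rxra* (-0.29), *Acads* (-0.32), *Etfb* (-0.45) and *Eci1* (-0.40), while 4065 of all tested genes (25.5%) were called in that set in either direction. Reads in no gene made up 11.3% to 12.0% of the reads of the treated mice in set 2, against 5.49% to 8.995% in the PBS-treated mice of that set. With this share as a covariate, 0 of 35 members and 89 of 15644 genes were called by edgeR between RGLS4326 and PBS, 3199 genes and 13 members, all above 0, had an unadjusted p under 0.05, and the log2 fold changes of *Ppara*, *Ppargc1a*, *Esrrg* and *Acsm2* were 0.58, 0.43, 0.37 and 0.58. *Acat1* and *Oxct1* were each at 0.30 and *Plin2* at -0.28 with this covariate, 32 of 35 members were above 0, and the members' median was 0.15. The part of this share in the result was not tested further.

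Without PBS replicates 2 and 11, *Ppara* (0.50, adjusted p in edgeR = 0.0357), *Ppargc1a* (0.45, adjusted p in edgeR = 0.0309), *Esrrg* (0.39, adjusted p in edgeR = 0.0336) and *Acsm2* (0.55, adjusted p in edgeR = 0.0458) were still called higher. *Acat1* (0.18, adjusted p in edgeR = 0.145) and *Oxct1* (0.24, adjusted p in edgeR = 0.0762) were not. PBS replicate 2 had the lowest PBS level of 17 members, and among treated mice replicates 7 and 5, both of set 2, had the lowest level of 19 and 9 members.

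Markers of the proximal tubule and of other cell types also differed between the groups. All 11 proximal tubule markers were called lower in PBS vs UNT (median log2 fold change -2.79), 6 of 11 were called higher in RGLS4326 vs PBS (median 0.61), and all 11 were called lower in RGLS4326 vs UNT (median -2.23). Their summed levels were 12639 to 16998 CPM in UNT, 1283 to 3909 CPM in PBS and 2487 to 4313 CPM in RGLS4326 libraries, and no marker was at 0 throughout a group. *Lrp2*, the endocytic receptor megalin, fell from 2710.0 ± 383 CPM in UNT to 449 ± 211 CPM in PBS and was at 701 ± 126 CPM after treatment, which against PBS is 0.64 on the log2 scale (SE 0.18, adjusted p in edgeR = 0.00984). In all 3 comparisons the markers' median log2 fold change was larger in size than that of the members. In RGLS4326 vs PBS, edgeR called 1 of 11 markers higher with a term for the no-gene read share (median 0.56, all 11 markers and 32 of 35 members above 0), 5 of 11 without PBS replicates 2 and 11, and 1, 0 and 0 in sets 1, 2 and 3 alone. Of all genes, 0.569%, 18.1%, 0.343%, 25.5% and 0 were called in either direction in these fits. With all libraries and no covariate, all 11 markers but 23 of 35 members were above 0. In set 2 alone the medians had opposite signs, at 0.18 for the markers (7 of 11 above 0) and -0.20 for the members. Podocyte markers were called lower in 4 of 4 in PBS vs UNT and higher in 4 of 4 in RGLS4326 vs PBS, and thick ascending limb markers lower in 3 of 4 and then higher in 3 of 4, with the remaining marker called the opposite way in both. Without PBS replicates 2 and 11 the latter counts were 3 of 4 and 1 of 4. Distal convoluted tubule markers were lower in 3 of 3 in PBS vs UNT and higher in 1 of 3 after treatment. Of 4 endothelium markers, 2 were called higher and 2 lower in PBS vs UNT. In RGLS4326 vs PBS 3 of them were called higher (median 0.21), or 1 without PBS replicates 2 and 11. Of 4 intercalated cell markers, 3 were called lower and 1 higher in PBS vs UNT. In RGLS4326 vs PBS 1 of them was called lower, or 0 with a term for the no-gene read share. In PBS vs UNT all 3 tested macrophage markers (median log2 fold change 3.83) and all 4 fibroblast markers (1.88) were higher. In RGLS4326 vs PBS, T cell markers were called lower in 3 of 3 (median -0.75), macrophage markers in 2 of 3 (-0.48) and principal cell markers in 2 of 4 (-0.42), against 1 of 3, 1 of 3 and 1 of 4 without PBS replicate 9. With a term for the no-gene read share, edgeR called 0.569% of all genes in RGLS4326 vs PBS. It called 0 markers of the podocyte, thick ascending limb, distal convoluted tubule, T cell, macrophage and principal cell lists. The medians were 0.17 for podocyte, 0.32 for thick ascending limb and 0.41 for distal convoluted tubule markers, against 0.31, 0.29 and 0.62 without the term. They were -0.61 for T cell, -0.20 for macrophage and -0.16 for principal cell markers. Of 4 endothelium markers, 1 was called with the term (median 0.29). The part of these cell types in the members' changes was not tested.

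**Figure D5:**
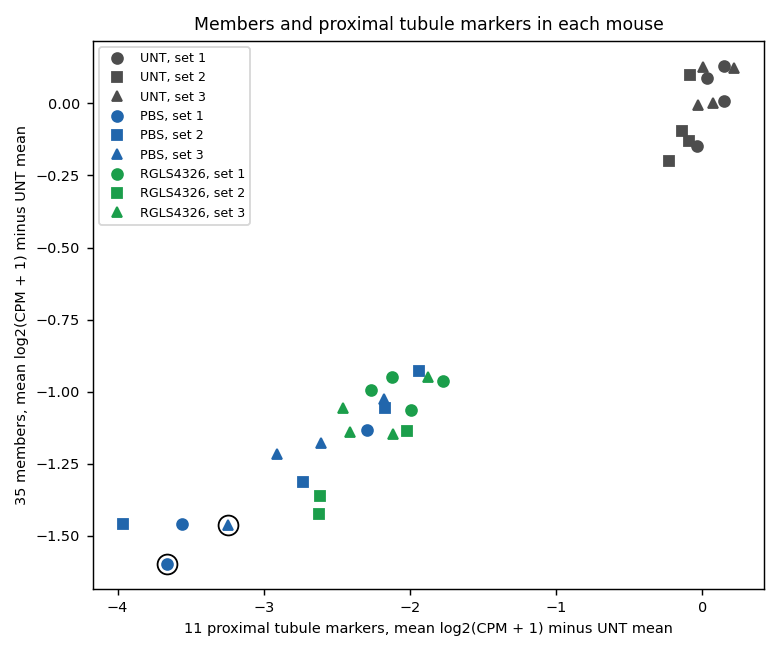
Mean of the 35 members (vertical axis) against the mean of 11 proximal tubule markers (horizontal axis) in each mouse, both as log2(CPM + 1) minus the UNT mean; colours mark groups, symbols the numbering sets, and circles PBS replicates 2 and 11. The *Pkd2*-KO mice lie between -0.93 and -1.60 for the members and between -1.78 and -3.96 for the markers, apart from all UNT mice.

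Other genes of the pathway were described from further lists. Of 29 tested further genes of acyl-CoA entry and oxidation, 22 were called lower and 4 higher in PBS vs UNT (median log2 fold change -1.01), and 7 were called higher and 4 lower in RGLS4326 vs PBS (median 0.04), or 3 and 1 without PBS replicates 2 and 11 and 5 and 1 without PBS replicate 9. With a term for the no-gene read share, edgeR called 0 of these genes, 0 of the further ketone genes and 0.569% of all genes. The medians of these 2 lists were 0.11 and 0.28 with the term, against 0.04 and 0.32 without it. *Acsm5*, another synthetase of the *Acsm* family, averaged 185 ± 27.4 CPM in UNT kidneys and 37.2 ± 8.43 CPM after RGLS4326, with a mean of 22.8 CPM in PBS and a log2 fold change of -3.02 in PBS vs UNT and 0.71 in RGLS4326 vs PBS (SE 0.20, adjusted p in edgeR = 0.0096). *Cpt1b*, the muscle form of the entry enzyme, was low in all groups and changed by -2.10 and 0.62. *Slc22a5*, the carnitine transporter, changed by -1.96 and 0.33, and *Fabp5*, a fatty acid binding protein, was not called in PBS vs UNT and fell by 0.40 after treatment. Without PBS replicates 2 and 11, *Acsm5* was called and *Cpt1b*, *Slc22a5* and *Fabp5* were not. Of 7 tested further ketone genes, 6 were called lower in PBS vs UNT and 3 higher in RGLS4326 vs PBS. Those called higher after treatment were *Slc16a6* and *Slc16a7*, transporters of monocarboxylates, at 0.49 and 0.37, and *Bdh2* at 0.36, which was not called without PBS replicates 2 and 11.

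Target genes of PPARα outside the members were examined as well. Of 17 tested targets, 13 were called lower and 3 higher in PBS vs UNT (median log2 fold change -0.96), and 0 were called higher and 2 lower by edgeR in RGLS4326 vs PBS (median 0.15). At an unadjusted p under 0.05 the counts were also 0 and 2, as they were with DESeq2. Without PBS replicates 2 and 11, or without PBS replicate 9, only *Ucp2* was called, and with a term for the no-gene read share 0 were called in either direction and 1 was higher and 1 lower at an unadjusted p under 0.05. *Acot3*, an acyl-CoA thioesterase of peroxisomes, *Acaa1b*, a peroxisomal thiolase, and *Cyp4a14*, a fatty acid hydroxylase, had the largest changes in cystic kidneys (-2.80, -2.76 and -2.61). After treatment their log2 fold changes were 0.43 (SE 0.25), 0.40 (SE 0.22) and 0.52 (SE 0.35), and none passed the test. The genes called lower after treatment were *Ucp2*, a carrier of the inner mitochondrial membrane, at -0.57 (SE 0.13, adjusted p in edgeR = 0.0039) and *Acaa1a*, a peroxisomal thiolase, at -0.19 (SE 0.07, adjusted p in edgeR = 0.041). *Ucp2* was higher in cystic kidneys by 1.87 on the log2 scale, and *Acaa1a* was lower by 0.42. With a term for the no-gene read share, their log2 fold changes in RGLS4326 vs PBS were -0.32 (adjusted p in edgeR = 0.132) and -0.04 (adjusted p in edgeR = 0.693).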

How the data were processed

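Kidney RNA of 34 mice was analysed. The authors deposited unnormalized counts of reads for each gene symbol in a separate table for every mouse. The submitters' processing notes name FastQC 0.11.2, Trim Galore, STAR, SAMtools 1.1, HTSeq 0.6.1, Picard 1.119 and the build GRCm38 (mm10). Libraries were stranded, and neither the gene annotation nor whether counting used strand was given in the sources used here, so the counts of the 14 of 35 members that share exon bases with another gene (GENCODE M21) are uncertain. Only uniquely mapped reads were counted.

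Counts were scaled by TMM and tested with edgeR 4.0.16 (R 4.3.3, quasi-likelihood, two-sided) after filterByExpr, all 34 mice in 1 fit with 3 groups and no covariate. Genes were called at a Benjamini-Hochberg adjusted p under 0.05 over all 15644 tested genes. Standard errors are those implied by the test. Nothing states that mice of a group came from separate litters, so p-values measure the spread between these mice. 0 pairs of libraries were identical, and the fit was tested on simulated data. Sample groups came from the labels. Values per group are given for the regulators, for members called in RGLS4326 vs PBS and for the member with the largest change of each role in PBS vs UNT. Of each other list, up to 3 of the called genes with the largest changes were eligible for naming. The members and lists were chosen with earlier results of these data known. Alternatives used RLE scaling, DESeq2 1.42.0, no filter, the 2 groups alone, numbering sets, covariates (set, share of reads in no gene, *Ddx3y* level) and a replicate block. Fits without PBS replicates 2 and 11 or without PBS replicate 9 were chosen after seeing the data.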

Additional observations from a re-analysis of the deposited data

How the results depend on the processing

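Against UNT, 33 to 34 members were called lower in PBS and in RGLS4326 mice under all 13 alternatives, and *Plin2* was called higher except in set 2 alone for RGLS4326 vs UNT (0 called). In RGLS4326 vs PBS, with 6 members called higher and 1 lower, the counts were 2 and 0 in set 1 alone, 0 and 4 in set 2 alone, 0 and 0 in set 3 alone, and 0 and 0 with a term for the no-gene read share. Of all genes, 0.343%, 25.5%, 0 and 0.569% were called by edgeR in these fits (3421, 6361, 2826 and 3199 genes at an unadjusted p under 0.05), so the count of 0 in set 3 is not particular to the members. Counts were 4 and 0 without PBS replicates 2 and 11 and 6 and 0 without PBS replicate 9, and DESeq2 called 9 and 1, while of all genes 18.1%, 26.03% and 36.4% were called in these fits, against 33.8% with all libraries in edgeR. With a replicate block 6 members were called higher and 0 lower. Same-numbered mice correlated above 0.1 in 2, 5 and 3 of 11 pairs in PBS vs UNT, RGLS4326 vs PBS and RGLS4326 vs UNT. Such a count cannot decide whether the sample numbers pair the mice, and the block is given here only. *Ppara* and *Ppargc1a* were called in 10 of 13 alternatives, *Esrrg* and *Acsm2* in 9, *Oxct1* in 8, *Acat1* in 7 and *Plin2* in 6. The sign of the log2 fold change turned only in RGLS4326 vs PBS, in 39 values, and the cause was not tested. Turned values in set 2 alone were *Rxra* -0.29, *Cd36* -0.21, *Slc27a2* -0.033, *Plin5* -0.52, *Cpt1a* -0.26, *Cpt2* -0.39, *Acadvl* -0.23, *Acadm* -0.048, *Etfdh* -0.065, *Hadhb* -0.10, *Hadh* -0.10, *Echs1* -0.10 and *Decr1* -0.19. Turned values in set 1 alone were *Esrra* 0.0072, *Cd36* -0.021, *Crat* 0.13, *Acadl* 0.21, *Acads* 0.091, *Etfb* 0.19, *Hadha* 0.12, *Acaa2* 0.18, *Eci1* 0.079, *Eci2* 0.29 and *Bdh1* 0.29. Turned values with set as a covariate were *Cd36* -0.0015. Turned values without PBS replicates 2 and 11 were *Cpt2* -0.014, *Echs1* -0.0035 and *Decr1* -0.016. Turned values with a term for the no-gene read share were *Crat* 0.035, *Acadl* 0.0602, *Acads* 0.029, *Etfb* 0.027, *Hadha* 0.062, *Acaa2* 0.079, *Eci1* 0.018, *Eci2* 0.069 and *Bdh1* 0.061. Turned values in set 3 alone were *Echs1* -0.062. Turned values without PBS replicate 9 were *Eci2* 0.032. The fits without PBS replicates were chosen after seeing the data.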

Other observations

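Other regulators of lipid and energy metabolism were described as a list. Of 22 tested, 13 were called lower and 5 higher in PBS vs UNT (median log2 fold change -0.64), and 5 were called higher and 1 lower in RGLS4326 vs PBS (median 0.23), or 2 and 1 without PBS replicates 2 and 11 and 0 and 0 in edgeR with a term for the no-gene read share. *Sirt1*, a deacetylase that acts on PGC-1α, had a mean of 38.7 ± 5.71 CPM (n = 12) in UNT, of 20.6 ± 4.52 CPM (n = 11) in PBS and of 27.4 ± 6.10 CPM (n = 11) in RGLS4326 kidneys, with a log2 fold change after treatment of 0.41 (SE 0.12, adjusted p in edgeR = 0.0115). *Gabpa*, a transcription factor of mitochondrial genes, rose by 0.37 (SE 0.09, adjusted p in edgeR = 0.00529), and *Prkaa2*, a catalytic subunit of the AMP-activated kinase, by 0.35 (SE 0.12, adjusted p in edgeR = 0.0225). With that term the log2 fold changes of *Sirt1*, *Gabpa* and *Prkaa2* were 0.14 (adjusted p in edgeR = 0.417), 0.22 (adjusted p in edgeR = 0.173) and 0.27 (adjusted p in edgeR = 0.221). The median of the list was 0.15 in that fit. *Klf15*, *Esrrb* and *Lpin1* had the largest changes in cystic kidneys (-2.07, -1.88 and -1.84) and were not called after treatment, with log2 fold changes of 0.34, 0.44 and 0.32.

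Genes of lipid storage and synthesis were a further list. Of 22 tested, 0 were called higher and 7 lower by edgeR in RGLS4326 vs PBS (median -0.09; 2 and 9 at an unadjusted p under 0.05, 0 and 7 by DESeq2, and 0 and 0 called by edgeR with a term for the no-gene read share, where 2 and 4 had an unadjusted p under 0.05, and 0 and 1 without PBS replicates 2 and 11 or 0 and 4 without PBS replicate 9), while 4 were called higher and 13 lower in PBS vs UNT (median -0.36). *Scd2*, a stearoyl-CoA desaturase, averaged 219.7 ± 59.5 CPM in UNT kidneys, rising to 623 ± 175 CPM in PBS, and was at 438 ± 89.9 CPM in RGLS4326 kidneys. *Scd1*, its relative, went from 1045 ± 470 CPM in UNT to 254 ± 112 CPM in PBS and 256 ± 139 CPM in RGLS4326 kidneys. *Plin4* and the lipase *Lipe*, both abundant in fat cells, fell after treatment by 0.55 and 0.38 on the log2 scale, as did the adipocyte markers *Cfd* (-1.58) and *Cidec* (-0.995). With a term for the no-gene read share, *Plin4*, *Lipe*, *Cfd* and *Cidec* were at -0.54, -0.28, -1.27 and -0.72 and were not called. Without PBS replicates 2 and 11, *Prkaa2*, *Scd2* and *Plin4* were not called in RGLS4326 vs PBS. The part of adipose tissue attached to the kidneys in these values was not tested.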
